A study of Drosophila melanogaster with 12 samples.

Results

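Genes that carry neuronal signals from receptors to the nucleus were followed in heads of Drosophila melanogaster males that had been taken off pentylenetetrazol (PTZ), a convulsant that blocks GABA-A receptors. The genes came from a list of 43, chosen by known function, of G protein subunits, cyclic AMP and calcium signalling enzymes, kinases of the Ras and Jun kinase cascades, and activity-regulated transcription and translation factors. Of these, 15 had a value on at least 1 array, out of 6646 named genes with a value in all. They were the G protein alpha subunit genes Galphai, Galphas, Galphao and Galphaq, the neuropeptide gene amn, the protein kinase A genes Pka-C2 and Pka-R1, Pkc53E, CanB, Dsor1, Nf1, puc, kay, foxo and orb2. The other 28 were not analysed here: Gbeta13F, Ggamma1, rut, dnc, Pka-C1, Pka-R2, CaMKI, CaMKII, Cam, CanA1, CanA-14F, CanB2, Fmr1, rl, Ras85D, csw, aPKC, sgg, for, CrebA, CrebB, Jra, bsk, Hr38, sr, Atf3, Mef2 and Lk6.

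Flies were Oregon-R, a wild-type stock; the males used were unmated, labelled as 4 to 5 days old and kept 30 to a vial. Treated flies ate food with 8 mg/ml PTZ for 7 days and then normal food for 1, 3 or 7 days, so that heads were taken on day 8, day 10 or day 14 from the start. Untreated flies of the same stock ate normal food throughout. Every day was measured on 4 spotted cDNA arrays, labelled as biological replicates, and each 2-colour array set RNA from pooled heads of treated flies against RNA from pooled heads of untreated flies. A value is a log2 ratio of treated over untreated with the median of its array set to 0, so 0 is the typical gene of that array. Whole heads hold many cell types, so fewer cells of a type and less RNA per cell cannot be told apart.

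Neurons turn receptor signals into gene activity through a small set of shared pathways. Stimulatory G proteins drive adenylyl cyclase, whose product cyclic AMP frees the catalytic subunits of protein kinase A from their regulatory subunits, and in flies this pathway in the mushroom bodies is needed for olfactory memory. Calcium acts through protein kinase C and the phosphatase calcineurin, and growth factor signals through Ras and the MAP kinases. Fos, Jun and other transcription factors are the nuclear end of these pathways and are widely used as readouts of neuronal activity.

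The data differed in quality between days, and the direction of the ratios was not settled. The channel labels put treated heads in Cy5 on all 12 arrays, and that direction is used for every sign printed. The series text, however, says that the dyes were swapped on some arrays of each day without naming them, and in the labelling protocol of replicates 1, 2 and 3 of day 10 the treated heads received Cy3. At day 8 the 4 columns agreed exactly at every spot that any 2 of them measured, and they were counted as 1 sample. Arrays held 15057 to 18354 values at day 10 and 4310 to 19807 at day 14. Across genes, which are not independent replicates, day 10 replicates 1 and 2 correlated at r = 0.501 and replicates 3 and 4 at 0.554, while arrays of different couples lay between -0.071 and 0.029. At day 14 the arrays correlated at -0.04 to 0.236. Log ratios carry no level, so the labelled tissue could not be checked by level. Of 18 markers of photoreceptors and neurons 6 had a value, the photoreceptor genes trp, trpl, inaD, Arr1 and Arr2 and the neuronal gene nSyb. Their median ratio was 0.108 to 0.324 on the day 10 arrays and 0.04 to 0.256 on those of day 14. It thus says little of neurons in general.

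At day 10, 3 days into withdrawal, 10 of the 15 genes had a mean below 0 (66.7%), as against 46.9% of all 4661 genes tested. The genes of the inhibitory and stimulatory G proteins, of 1 catalytic and 1 regulatory subunit of protein kinase A, and of Fos stood at means of -0.44 to -0.30, and Galphao and Dsor1 stood at 0.33 and 0.51. None of the 15 was called by limma at a Benjamini-Hochberg adjusted p under 0.05, nor was any other gene of that day (0% called). At an unadjusted p under 0.05 the same fit had 7 of the 15 (46.7%), namely these 7, as against 616 of 4661 genes (13.2%). Of the 7, 5 lay below 0, where 5.66% of all genes passed that mark, and 2 above, where 7.55% did. On every array that measured them, 6 of the 15 lay below 0 (40%; Galphai, Galphas, Galphaq, Pka-C2, Pka-R1 and kay), as against 13.1% of all genes. The median of the 15 means was -0.113, beside 0.013 for all genes tested, and on single arrays it lay between -0.202 and -0.063. The genes were chosen with results of these data already known, so the excess is a description and was not tested.

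**Figure D1:**
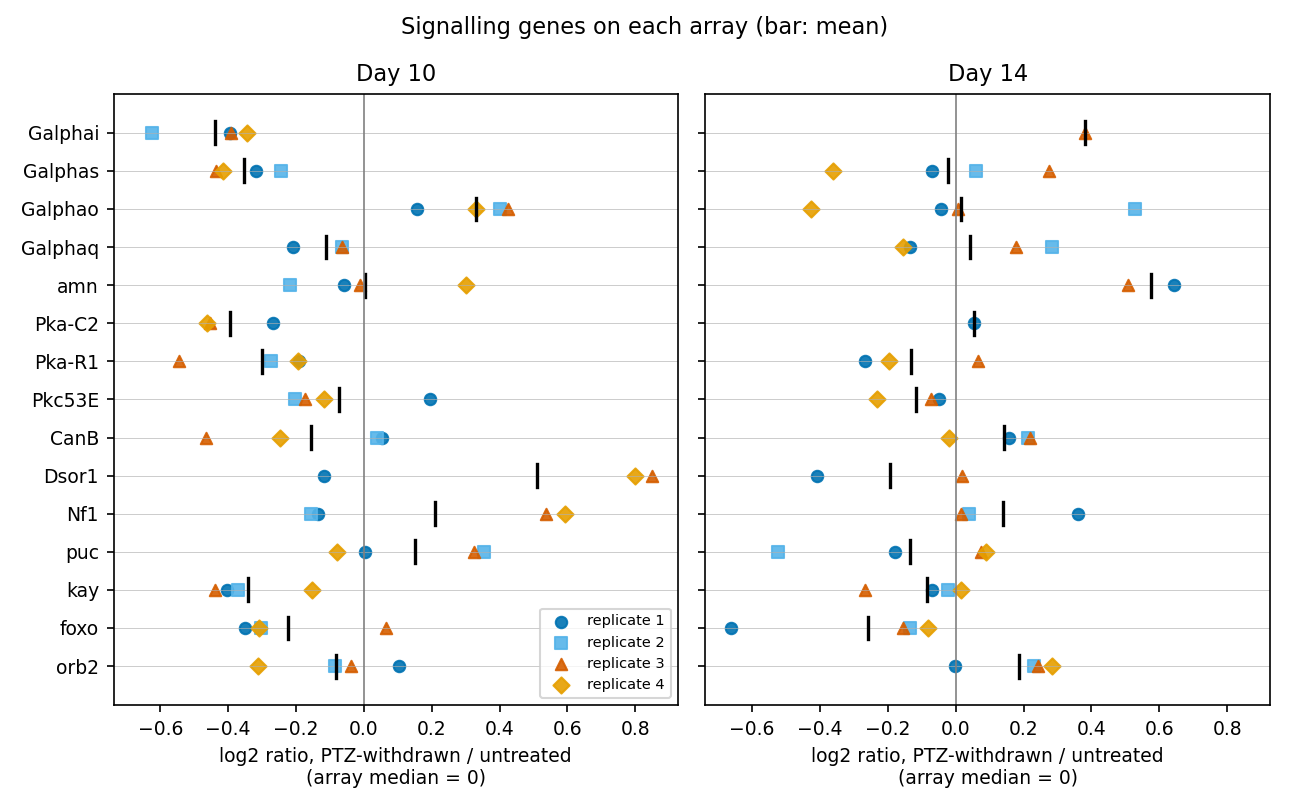
Log2 ratio of PTZ-withdrawn over untreated heads of each of the 15 genes on every array of days 10 and 14, with array medians set to 0; each point is 1 array and the bar is the mean of the day. The points of Galphai, Galphas, Pka-C2, Pka-R1 and kay all lie below 0 at day 10, and those of Galphao all above.

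Among the G protein genes, Galphai encodes the alpha subunit that inhibits adenylyl cyclase and, in dividing neuroblasts of the fly, orients the spindle. Galphai stood at -0.39, -0.62, -0.39 and -0.34 in day 10 replicates 1 to 4, a mean of -0.44 ± 0.13 (SD, n = 4). All 4 arrays placed it in the lowest part of their genes, between the 1.9 and the 12.4 percentile. Its limma p was 0.00286, rank 78 of 4661 and the smallest of the 15 genes, and its adjusted p was 0.1663, with a 95% interval of -0.68 to -0.20. Its 2 spots, neighbours by spot number and so taken as 1 clone, lay a median of 0.126 apart. At day 14 Galphai had a value on replicate 3 alone, 0.38, which lies above all 4 day 10 arrays and was not tested.

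Galphas encodes the alpha subunit that stimulates adenylyl cyclase. Its ratios were -0.32, -0.24, -0.44 and -0.42 in day 10 replicates 1 to 4, with a mean of -0.35 ± 0.09 (SD, n = 4). The 4 arrays were close to one another, all below 0, at percentiles 4.4 to 17.7 (limma adjusted p = 0.2246, unadjusted 0.008411). At day 14 Galphas stood at -0.07, 0.06, 0.27 and -0.36, with a mean of -0.02 ± 0.27 (SD, n = 4). Those arrays lay on both sides of 0, and replicate 4 lay within the range of day 10 (limma adjusted p = 0.9827 for day 14). The difference of day 14 minus day 10 was 0.33 with a standard error of 0.156 and a 95% interval of -0.01 to 0.67, the smallest p of the differences among these genes (unadjusted 0.05901, adjusted 0.6406 by limma).

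Galphao, which encodes the abundant neuronal alpha subunit that pertussis toxin modifies, lay on the other side. Its day 10 ratios were 0.16, 0.40, 0.42 and 0.33 in replicates 1 to 4, a mean of 0.33 ± 0.12 (SD, n = 4). All 4 arrays lay above 0, a pattern that 12.2% of all genes tested had and none of the other signalling genes did. The limma adjusted p was 0.3302 (unadjusted 0.03253), with a 95% interval of 0.03 to 0.63. At day 14 the ratios spread from -0.43 in replicate 4 to 0.53 in replicate 2, with -0.04 and 0.01 in replicates 1 and 3, and the mean was 0.02 ± 0.39 (SD, n = 4). The 2 days overlapped, and the difference of day 14 minus day 10 was -0.31 with a 95% interval of -0.73 to 0.11 (limma adjusted p = 0.7084).

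Galphaq encodes the alpha subunit that activates phospholipase C, best known in the fly from phototransduction. It was measured on 3 day 10 arrays, at -0.21, -0.07 and -0.06 in replicates 1 to 3, and its mean of -0.11 ± 0.08 (SD, n = 3) had a limma adjusted p of 0.7413. Its 2 clones gave day 10 means of -0.015 and -0.211, so the values below 0 came mainly from 1 of them. At day 14 Galphaq stood at -0.14, 0.29, 0.18 and -0.16, on both sides of 0, with a mean of 0.04 ± 0.22 (SD, n = 4, limma adjusted p = 0.9723).

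Of the cyclic AMP genes, amn encodes the precursor of neuropeptides that act on memory and on the sensitivity of flies to ethanol. It stood at -0.06, -0.22, -0.01 and 0.30 in day 10 replicates 1 to 4, and the mean was 0.00 ± 0.22 (SD, n = 4, limma adjusted p = 0.9921). At day 14 amn had values on replicates 1 and 3, 0.64 and 0.51, both above every day 10 array and at percentiles 95.2 and 98.2 of their arrays. With 2 of 4 columns it was not tested at that day.

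Pka-C2 belongs to the catalytic subunit genes of protein kinase A. Its ratios were -0.27, -0.45 and -0.46 in day 10 replicates 1, 3 and 4, a mean of -0.39 ± 0.11 (SD, n = 3). All 3 arrays lay at percentiles 3.6 to 17.4 (limma adjusted p = 0.246, unadjusted 0.01523). The 1 array of day 14 with a value, replicate 1, gave 0.05, above the 3 arrays of day 10.

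Pka-R1 encodes the type I regulatory subunit, which holds the catalytic subunits inactive until cyclic AMP binds. It stood at -0.19, -0.27, -0.55 and -0.19 in day 10 replicates 1 to 4, a mean of -0.30 ± 0.17 (SD, n = 4). All 4 arrays were below 0 and replicate 3 was the lowest (limma adjusted p = 0.2533, unadjusted 0.01719). At day 14 the 3 arrays with a value, replicates 1, 3 and 4, gave -0.27, 0.07 and -0.20. These overlapped the range of day 10, and their mean of -0.13 ± 0.18 (SD, n = 3) had a limma adjusted p of 0.8494.

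On the calcium side, Pkc53E encodes a conventional, calcium-dependent protein kinase C. It stood at 0.20, -0.20, -0.17 and -0.12 in day 10 replicates 1 to 4, a mean of -0.07 ± 0.18 (SD, n = 4, limma adjusted p = 0.8114). At day 14 replicates 1, 3 and 4 gave -0.05, -0.07 and -0.23, all below 0, with a mean of -0.12 ± 0.10 (SD, n = 3, limma adjusted p = 0.871). The means of the 2 days differed by less than the standard error of their difference, 0.156.

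CanB encodes the calcium-binding regulatory subunit of calcineurin. Its day 10 ratios were 0.05 and 0.04 in replicates 1 and 2 but -0.46 and -0.25 in replicates 3 and 4, a mean of -0.15 ± 0.25 (SD, n = 4, limma adjusted p = 0.5574). The arrays of day 10 thus split by the same couples that correlate across genes. At day 14 CanB stood at 0.16, 0.21, 0.22 and -0.02, a mean of 0.14 ± 0.11 (SD, n = 4, limma adjusted p = 0.8151). The difference of day 14 minus day 10 was 0.30 with a standard error of 0.154 (unadjusted p = 0.08007, adjusted 0.6406 by limma), and the ranges overlapped.

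In the Ras cascade, Dsor1 encodes the MAP kinase kinase that activates the ERK of the fly, and Nf1 encodes neurofibromin, which switches Ras off and also acts on cyclic AMP signalling and learning in flies. Dsor1 stood at -0.12, 0.85 and 0.80 in day 10 replicates 1, 3 and 4, a mean of 0.51 ± 0.54 (SD, n = 3, limma adjusted p = 0.332, unadjusted 0.03463). Replicates 3 and 4 were high and replicate 1 was not. Without replicate 1 the mean was 0.82 and the limma adjusted p 0.05841. Without replicate 3 they were 0.34 and 0.6862, and without replicate 4 they were 0.37 and 0.7562. The spots of Dsor1 lay up to 0.939 apart on 1 array. At day 14 the 2 arrays with a value gave -0.41 and 0.02, below replicates 3 and 4 of day 10, and were not tested.

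Nf1 split between the arrays in the same way. It stood at -0.13, -0.15, 0.54 and 0.59 in day 10 replicates 1 to 4, low in the former couple of arrays and high in the latter, with a mean of 0.21 ± 0.41 (SD, n = 4, limma adjusted p = 0.5615). The high values came from 1 of its 2 clones, which gave -0.40, 1.19 and 1.23 in replicates 1, 3 and 4. The other clone gave 0.13, -0.15, -0.11 and -0.04 in replicates 1 to 4, so the clones disagreed and no single ratio describes Nf1 at day 10. At day 14 Nf1 stood at 0.36, 0.04 and 0.02 in replicates 1 to 3, all above 0, with a mean of 0.14 ± 0.19 (SD, n = 3, limma adjusted p = 0.9051).

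Nf1 and CanB were the genes, 2 of the 12 measured on all 4 arrays (16.7%), that had replicates 1 and 2 on one side of 0 and replicates 3 and 4 on the other, as against 28.4% of all 3317 such genes. Some other values moved with that split and some did not. The median ratio of blood cell markers, of which 4 of 8 had a value, was -0.015 over 4 genes in replicate 1, 0.663 over 3 in replicate 3 and 0.794 over 2 in replicate 4, with none measured in replicate 2. The median of the fat body markers, of which 11 of 12 had a value, was 0.013, -0.132, 0.159 and 0.47 in replicates 1 to 4. Testis markers, over 1, 3, 1 and 2 genes, stood at 0.582, 0.298, 1.606 and 0.954. Muscle markers went the other way, at 0.1, 0.094, -0.072 and -0.047. Glia markers did not follow the split, at -0.579, 0.048, -0.052 and -0.084. Neither did the measured markers of photoreceptors and neurons, nearly all of photoreceptors, at 0.324, 0.108, 0.15 and 0.149. The SD of all genes was 0.274 and 0.282 in replicates 1 and 2 and 0.427 and 0.463 in replicates 3 and 4. The part of these in the values of Dsor1, Nf1 and CanB was not tested.

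The Jun kinase cascade was represented by the Fos gene kay, whose product joins Jun in the AP-1 transcription factor, and by puc, a phosphatase gene that Jun kinase signalling switches on and whose product turns the kinase off. The ratios of kay were -0.40, -0.37, -0.44 and -0.15 in day 10 replicates 1 to 4, with a mean of -0.34. The 4 arrays lay below 0 with replicate 4 the nearest to it, and the limma p of 0.004112 ranked 103 of 4661 (adjusted p = 0.1853, 95% interval -0.55 to -0.13). At day 14 kay stood at -0.07, -0.02, -0.27 and 0.02, a mean of -0.09 ± 0.13 (SD, n = 4, limma adjusted p = 0.8861). Replicate 3 of day 14 lay within the range of day 10, and the difference of the day means was 0.26 with a 95% interval of -0.04 to 0.55 (limma adjusted p = 0.6406).

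By contrast puc had values on both sides of 0 at both days. In day 10 replicates 1 to 4 it stood at 0.00, 0.35, 0.33 and -0.08, a mean of 0.15 ± 0.22 (SD, n = 4, limma adjusted p = 0.6384). In day 14 replicates 1 to 4 it stood at -0.18, -0.52, 0.07 and 0.09, a mean of -0.13 ± 0.29 (SD, n = 4, limma adjusted p = 0.8506). The 2 days overlapped and their difference of -0.29 had a limma adjusted p of 0.71.

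The gene foxo encodes the transcription factor that insulin signalling keeps out of the nucleus and that is active in fasting and stress. It stood at -0.35, -0.30, 0.07 and -0.31 in day 10 replicates 1 to 4, with replicate 3 apart from the rest and a mean of -0.22 ± 0.19 (SD, n = 4, limma adjusted p = 0.4345). At day 14 it stood at -0.66, -0.14, -0.15 and -0.08, with replicate 1 far below the others. The spots of foxo on that array stood apart, at -0.284 and -1.039. The mean of the 4 arrays, -0.26 ± 0.27 (SD, n = 4), had the smallest p of these genes at day 14 (unadjusted 0.05362, adjusted 0.7522 by limma, 95% interval -0.52 to 0.01). Without replicate 1 the mean was -0.12 and the limma adjusted p 0.984. The means of both days thus lay below 0, and day 14 minus day 10 was -0.03 with a standard error of 0.169 (limma adjusted p = 0.9562).

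The gene orb2 encodes an RNA-binding protein of the CPEB family, which controls translation and is needed for long-term memory in flies. Its day 10 ratios of 0.11, -0.09, -0.04 and -0.31 lay around 0, with a mean of -0.08 ± 0.17 (SD, n = 4, limma adjusted p = 0.7744). At day 14 it stood at 0.00, 0.23, 0.24 and 0.28 in replicates 1 to 4, a mean of 0.19 ± 0.13 (SD, n = 4, limma adjusted p = 0.7522). Its 3 clones did not share a side at that day, with means of 0.33 over 2 arrays, 0.26 over 4 and -0.24 over 2.

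**Figure D2:**
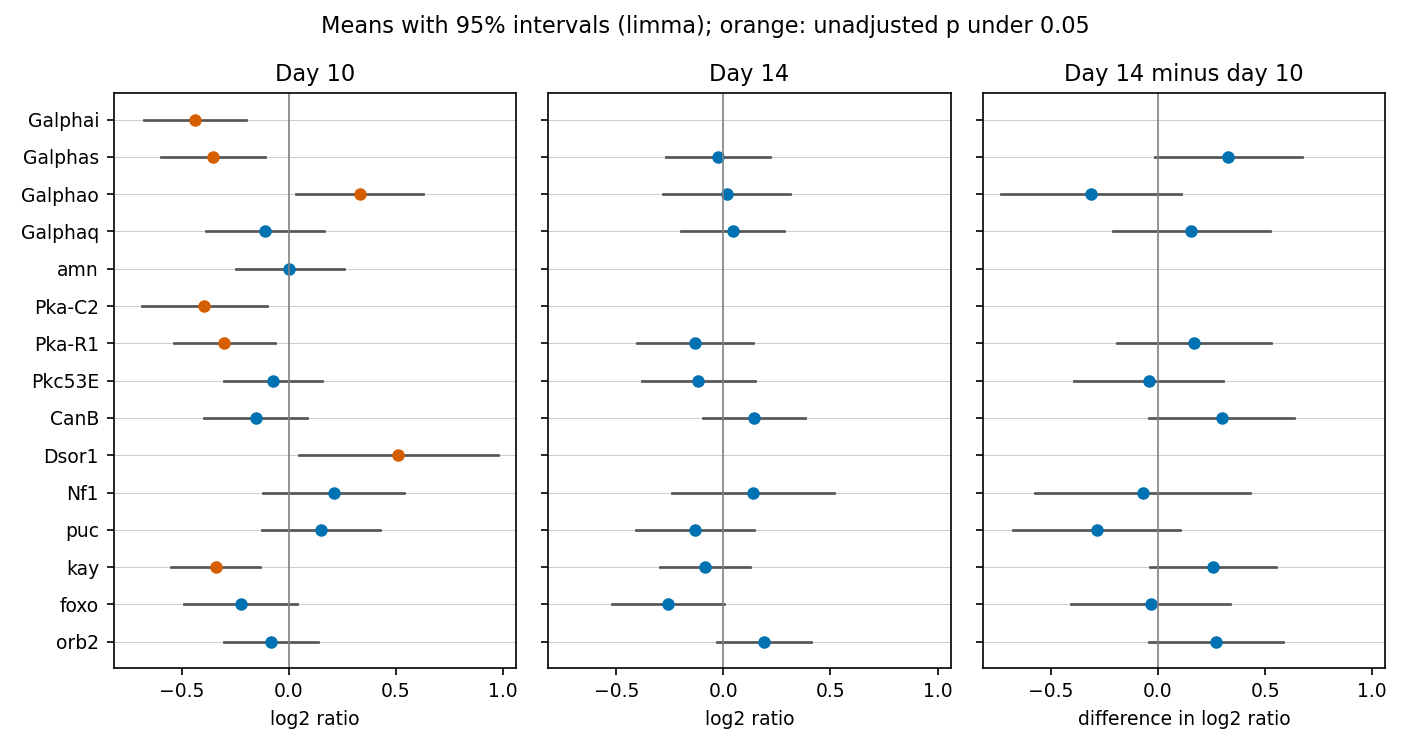
Mean log2 ratio of PTZ-withdrawn over untreated heads with its 95% interval from the limma fit, for the genes tested at day 10 (15) and day 14 (11). The day 10 intervals of Galphai, Galphas, Pka-C2, Pka-R1 and kay lie below 0 and those of Galphao and Dsor1 above it, before any adjustment for the 4661 genes tested, and every day 14 interval holds 0.

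At day 14, after 7 days of withdrawal, 11 of the 15 genes were tested and 6 had a mean below 0 (54.5%), close to the 47.8% of all 3010 genes tested. None was called by limma (0% of all genes called), and at an unadjusted p under 0.05 it had 0 of the 11 as against 200 of 3010 genes (6.64%). On every array that measured them, foxo and Pkc53E lay below 0 (12.8% of all genes did) and Nf1 above (14.5%). The median of the 11 means was -0.024, beside 0.009 for all genes, and it was -0.069, 0.061, 0.067 and -0.119 on replicates 1 to 4. Of the 6 genes whose arrays all lay below 0 at day 10, Galphas, Galphaq, Pka-R1 and kay were tested at day 14, and each had arrays on both sides of 0 there. Median standard errors of all genes were 0.124 at day 10 and 0.133 at day 14. The fit gave each gene 1 spread shared by the days, so these do not compare the precision of the days.

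The direct comparison of the 2 days called none of the 11 genes and none of all 2385 tested (0%). At an unadjusted p under 0.05 limma had 0 of the 11 as against 172 of 2385 (7.21%). A lower mean at day 14 than at day 10 was seen in 5 of the 11, beside 51.4% of all genes. The largest positive differences were those of Galphas, CanB, orb2 and kay, 0.26 to 0.33, and the most negative those of Galphao and puc, -0.31 and -0.29. In none of the 11 were the ranges of the 2 days apart, as they were in 216 of 2385 genes (9.06%). A difference between days was thus not detected in these genes, each measured on 3 or 4 arrays a day. The 95% intervals are wide, and those of Galphas and orb2 reach 0.67 and 0.58.

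**Figure D3:**
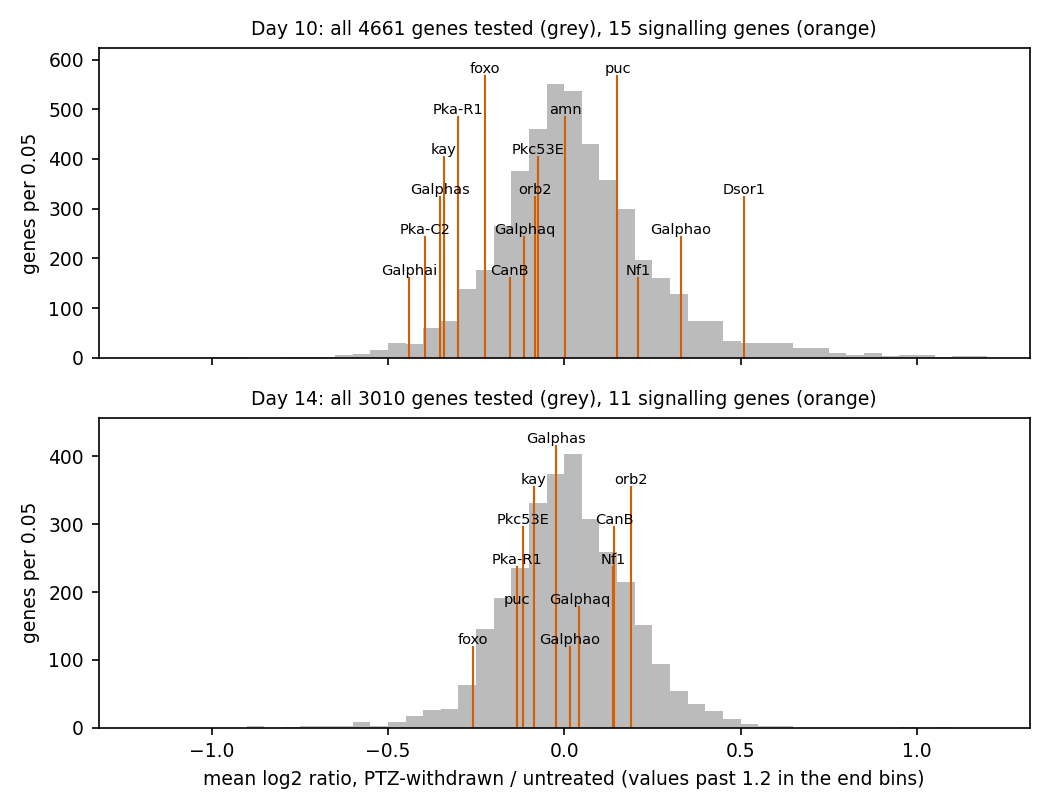
Distribution of the mean log2 ratio over all genes tested at day 10 (4661, upper) and day 14 (3010, lower), in grey as the number of genes per step of 0.05, with the signalling genes marked in orange. At day 10 Galphai, Pka-C2, Galphas, kay and Pka-R1 stand in the left flank and Dsor1 and Galphao in the right; at day 14 the 11 genes lie on both sides of 0, from foxo at -0.26 to orb2 at 0.19.

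At day 8, 1 day after PTZ, 6 of the 15 genes had a value and none was tested, since none had values in 3 columns; limma called 3.66% of the 519 genes tested that day, on 1 sample whose spread was taken from the other days. Galphaq gave the value farthest from 0, -0.48 and -0.49 in 2 columns that differ only by their medians. Its 4 spots lay up to 0.762 apart, from -0.734 to 0.028 in replicate 1. The RNA-binding protein gene orb2 stood at -0.20 and -0.21. Galphao stood at -0.04 and -0.05, CanB at -0.03 and -0.04, Pkc53E at -0.02 and -0.04, and Pka-R1 at -0.03 in 1 column. As the columns of that day are copies of each other wherever both hold a value, these are single measurements with no replicate. Galphaq at day 8 lay below every array of days 10 and 14, and that difference was not tested.

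The remaining genes of the same pathways, 126 listed of which 62 had a value, are given for comparison. At day 10, 45 were tested, 20 had a mean below 0 (46.9% of all genes did) and the median was 0.038. There limma called 0 and had 10 at an unadjusted p under 0.05 (22.2%, beside 13.2% of all genes), 4 above 0 and 6 below. At day 14, 37 were tested, 19 lay below 0, the median was -0.003, limma called 0 and 3 had an unadjusted p under 0.05 (8.11%, beside 6.64% of all genes).

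**Figure D4:**
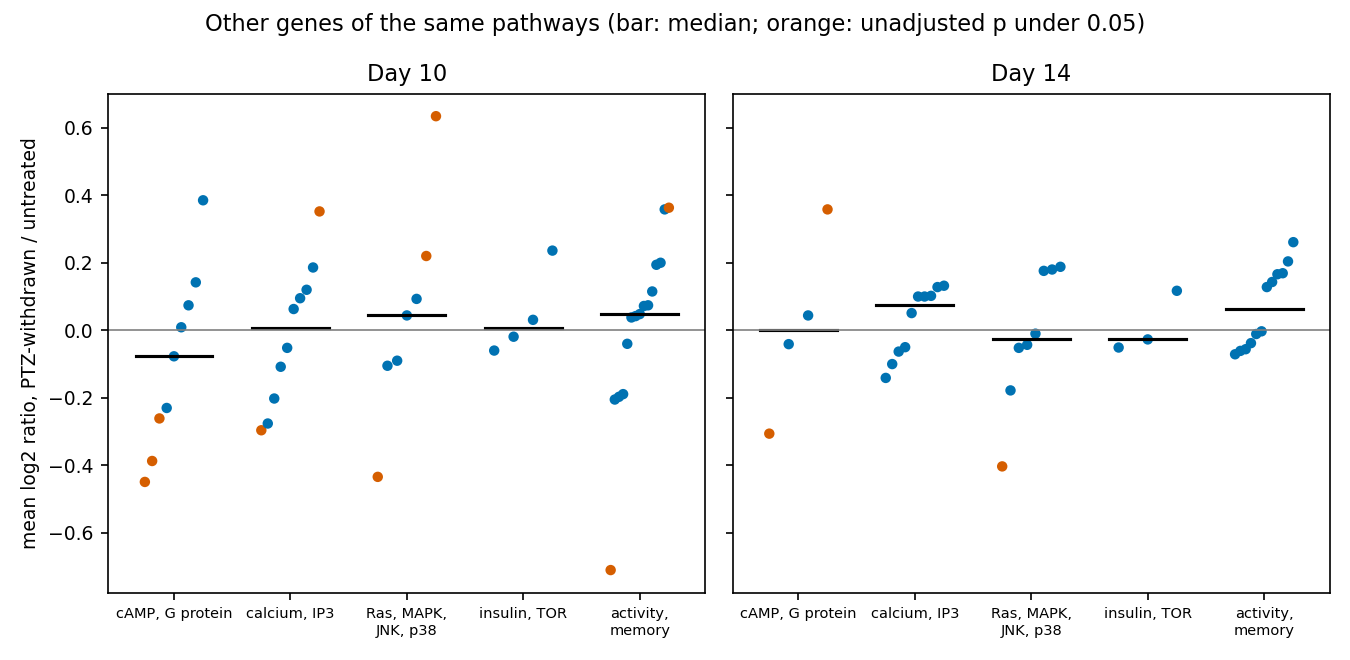
Mean log2 ratio at day 10 and day 14 of every tested gene in the 5 lists of other genes of these pathways. Each point is a gene and the bar is the median of the list. The medians of the 5 lists lie between -0.077 and 0.075. The 15 signalling genes are not drawn, and their median was -0.113 at day 10.

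Of the other cyclic AMP and G protein genes, 9 were tested at day 10, 4 above and 5 below 0, with a median of -0.077 and 3 at an unadjusted p under 0.05, all below 0, where 5.66% of all genes passed that mark. The smallest p were those of cta, a G protein alpha subunit gene known from cell shape change in the embryo, at -0.45 ± 0.23 (SD, n = 4, limma adjusted p = 0.1853), and the adenylyl cyclase gene Ac76E at -0.39 ± 0.20 (SD, n = 4, limma adjusted p = 0.2246). At day 14, 4 were tested with a median of 0.001. There 1 above 0 and 1 below had an unadjusted limma p under 0.05, beside 6.64% of all genes. The receptor kinase gene Gprk2 stood at 0.36 ± 0.09 (SD, n = 3, limma adjusted p = 0.6298) and loco, whose product speeds the turn-off of G protein alpha subunits, at -0.31 ± 0.16 (SD, n = 3, limma adjusted p = 0.6985).

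The calcium and phosphoinositide genes were evenly spread, 5 above and 5 below 0 at day 10 and 6 above and 4 below at day 14. An unadjusted limma p under 0.05 was held by 1 above 0 and 1 below at day 10, beside 13.2% of all genes. At day 14 it was held by 0, beside 6.64%. At day 10 the smallest p were those of IP3K1, a kinase gene for inositol trisphosphate, at 0.35 ± 0.13 (SD, n = 4, limma adjusted p = 0.2326), and Cbp53E, a calcium-binding protein gene, at -0.30 ± 0.20 (SD, n = 4, limma adjusted p = 0.289). At day 14 they were those of inaC, the protein kinase C gene of photoreceptors, at 0.13 ± 0.20 (SD, n = 4, limma adjusted p = 0.8215) and again IP3K1, at 0.13 ± 0.29 (SD, n = 3, limma adjusted p = 0.8692).

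In the Ras, MAP kinase and Jun kinase list, 4 of 7 genes lay above 0 at day 10 and 3 of 8 at day 14. An unadjusted limma p under 0.05 was held by 2 above 0 and 1 below at day 10, beside 13.2% of all genes. At day 14 it was held by 1, below 0, beside 6.64%. PTP-ER, a phosphatase gene of ERK, stood at -0.43 ± 0.33 (SD, n = 3, limma adjusted p = 0.246) at day 10. Mekk1, a kinase gene upstream of p38, stood at 0.63 ± 0.71 (SD, n = 3, limma adjusted p = 0.2701), with -0.15 on 1 array against 1.25 and 0.80 on the other two. At day 14 the smallest p were those of the Ras scaffold gene cnk, at -0.40 ± 0.23 (SD, n = 4, limma adjusted p = 0.6053), and of grnd, a receptor gene for the fly tumour necrosis factor, at 0.19 ± 0.25 (SD, n = 3, limma adjusted p = 0.808).

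Of the other genes of the insulin, TOR and foxo pathway, 4 were tested at day 10 and 3 at day 14. Their medians were 0.006 and -0.027, with none at an unadjusted p under 0.05. The kinase gene Akt stood at 0.24 ± 0.61 and the TOR inhibitor gene Tsc1 at -0.06 ± 0.56 at day 10 (SD), and the insulin-like peptide gene Ilp2 at 0.12 ± 0.32 and the kinase gene S6k at -0.05 ± 0.27 at day 14 (SD). Of the other activity-regulated and memory genes, 10 of 15 lay above 0 at day 10 and 6 of 12 at day 14. An unadjusted limma p under 0.05 was held by 1 above 0 and 1 below at day 10, beside 13.2% of all genes. At day 14 it was held by 0, beside 6.64%. Arc1, an activity-regulated gene whose product forms capsids that carry RNA, stood at 0.01, 0.07, 0.75 and 0.63 in day 10 replicates 1 to 4 (limma adjusted p = 0.3263), high in the same replicates 3 and 4 as Dsor1. The kinase gene Slik stood at -0.71 ± 0.66 (SD, n = 3, limma adjusted p = 0.2246) at day 10. At day 14 the smallest p were those of the peptidase gene Nep4, at 0.26 ± 0.17 (SD, n = 3, limma adjusted p = 0.7522), and of ben, a ubiquitin-conjugating enzyme gene, at 0.20 ± 0.18 (SD, n = 4, limma adjusted p = 0.7522).

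The genes nearest to these in their array values were sought among the 604 genes measured on all 8 arrays of days 10 and 14, by Euclidean distance on the log2 scale. Nearest to kay were Ncoa6 at 0.396, SKIP at 0.484 and Cals at 0.491, with a median over all genes of 0.989. Nearest to Galphas were Cals at 0.299, RASSF8 at 0.341 and the octopamine receptor gene Octbeta2R at 0.343, with a median of 1.035. The genes share the same arrays, so the distances also hold what each array adds to all its genes. Galphai was measured on 5 of the 8 arrays and could not be compared.

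These values rest on few arrays and on an assumed direction. If replicates 1, 2 and 3 of day 10 are read with the dyes of their labelling protocol, 11 of the 15 genes change side. Then kay, at 0.27, is the only 1 of the 15 with an unadjusted limma p under 0.05, beside 2.81% of all genes. With the signs of replicates 3 and 4 turned instead, on both days, Dsor1 and Nf1 have it, beside 14.9% of all genes. With replicates 2 and 4 or 2 and 3 turned, 0 of the 15 do, beside 0.794% and 1.05% of all genes. With array values centred by a running median along spot number, 4 of the 7 genes keep an unadjusted limma p under 0.05 at day 10. They are Galphai, Galphas, Pka-C2 and kay, beside 10.1% of all genes. Without replicate 4, Galphai, Galphas, Pka-R1 and kay keep it, beside 7.85% of all genes. Without replicate 3, Galphai, Galphas and kay do and foxo comes in, beside 10.1% of all genes.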

How the data were processed

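RNA of pooled heads was copied, labelled with Cy3 and Cy5 and hybridized to 12 spotted arrays. The deposited values are log ratios per spot, normalized by ratio by the authors per the labels; per the series text images were read with GenePix Pro, normalized in Acuity and filtered for saturation, uniformity and signal to noise. No source used here states the logarithm's base, and log2 was assumed for the deposited values. Of 27648 spots, 15116 carried 1 gene name, 12430 are unnamed here, and the 102 with several names were not used. For 14894 of the spots with 1 name, the gene was found in a RefSeq table, which gave its current symbol. Spot intensities were not used here.

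Each array was centred on its median and the spots of a gene were averaged. Clones were told apart by spot number alone, with neighbouring spots of a gene taken as 1 clone, and no clone names were used. A mean per day was fitted to 5291 genes with lmFit and eBayes of limma 3.58.1 in R 4.3.3 (5.1 prior degrees of freedom), with the 4 identical day 8 columns as 1 sample and no dye term. The fit took the 4 arrays of day 10 as independent, although they correlated across genes by couples. The p-values and intervals of that day may thus overstate its replication. Testing at a day required values in at least 3 of its 4 columns, and p was adjusted by Benjamini-Hochberg over all genes tested. The fit was checked on simulated data. Replicate numbers were not used to pair the arrays of days 10 and 14.

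The genes and lists were chosen with earlier results of these data known. Every listed gene with a value is named; of other pathway genes, the 2 with the smallest p per list and day are named, and for the 3 genes with the smallest p, the 3 nearest genes. The number of arrays limits the precision.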

Additional observations from a re-analysis of the deposited data

Results flagged for a closer look

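In 2 groups of 4 arrays, 1 array of foxo stood apart from the other three by Dixon's test at the 95% level, which chance flags in about 1 of 20 groups. At day 10 it was replicate 3, at 0.066 against -0.349 to -0.304 in the others. At day 14 it was replicate 1, at -0.662 against -0.154 to -0.082, where the 2 spots of foxo lay 0.755 apart. For 2 genes every array of day 10 lay below 0 and the single array of day 14 with a value lay above it, a difference between days that was not tested. Of all genes tested at day 10, 13.1% lay below 0 on every array that measured them. The share of these with a single day 14 value above 0 was not counted. For Galphai, day 14 minus day 10 was 0.821, from 4 arrays and 1. For Pka-C2 it was 0.448, from 3 arrays and 1.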

How the results depend on the processing

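None of the 15 genes was called at any day under any alternative with array medians set to 0. With medians left as deposited, limma called 8 genes in place of 19 at day 8, 3001 in place of 0 at day 14 and 2352 in place of 0 between days 10 and 14, among them 11 of the 11 signalling genes tested at day 14 and 11 of 11 between days, since array medians then enter each value. The signalling genes' median was then -0.341 at day 10 and 1.044 at day 14, and 6 of them turned sign at day 14 (Galphas 1.044, Pka-R1 0.762, Pkc53E 0.779, kay 0.983, puc 0.934, foxo 0.810), as did 5 differences between days (Galphao 1.004, Nf1 1.417, Pkc53E 1.101, puc 1.032, foxo 1.283). Day 8 had 11 calls without genes whose spots span over 1 and 4 with its standard error raised by a factor of 1.849. Day 10 had 3 calls among genes with all 4 values, and 0 to 80 with 1 array left out: 80 without replicate 1, 14 without replicate 2, 0 without replicate 3 and 1 without replicate 4. Between days, leaving out 1 array gave 0 to 3 calls, 3 without day 10 replicate 1. The replicate numbers were checked for pairing. Same-numbered arrays of days 10 and 14 had deviations from their day means correlated at -0.102, 0.304, 0.153 and 0.119. Differently numbered arrays gave -0.272 to 0.318. A replicate block gave 1 call in place of 0. With other dye orientations, the signalling genes' day 10 median of -0.113 became 0.086 with replicates 1, 2 and 3 turned, -0.045 with 3 and 4, -0.024 with 2 and 4, and -0.013 with 2 and 3, and 8 to 11 of the 15 changed sign. With 1 array left out it was -0.163 to -0.098 at day 10, and at day 14 -0.053 to 0.088, 0.088 without replicate 4. Other causes were not tested.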
